A study of Mus musculus with 54 samples.

Results

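The genes described here encode enzymes and core subunits that write, erase, or read out 2 repressive chromatin marks, DNA methylation and trimethylation of lysine 27 of histone H3 (H3K27me3). They are the DNA methyltransferases Dnmt1, Dnmt3a, and Dnmt3b, the TET dioxygenases Tet1, Tet2, and Tet3, and Ezh1, Ezh2, Suz12, and Eed of Polycomb repressive complex 2 (PRC2). The list was set by name, and all 10 genes were found once each among the 55385 genes of both count tables and passed the minimum of 1 read. RNA was sequenced from naive CD4+ T cells of C57BL/6 mice aged 8 to 10 wk. In the CD5/CD6 experiment (36 libraries), cells of WT, Cd5-/-, Cd6-/-, and Cd5-/-Cd6-/- mice were enriched with a magnetic kit from lymph nodes pooled with spleens. In the LAT experiment (18 libraries), cells of Lat fl-dtr maT-Cre mice, in which Cre is expressed in mature T cells, were sorted as positive for the human diphtheria toxin receptor (human DTR+, called WT) or negative for it (human DTR-, called Lat-/-), so that the WT cells here (called sorted WT cells, as against CD5/CD6 WT cells) came from mice with the floxed allele and the transgene. Cd5-/- mice had been backcrossed to C57BL/6, the deletion in Cd6-/- mice takes in the start codon, and Cd5-/-Cd6-/- mice carry 1 deletion over both neighboring genes. Every genotype was left unstimulated (0 h) or stimulated for 4 or 20 h with plate-bound anti-CD3 at 3 µg/ml and anti-CD28 at 1 µg/ml, with 3 libraries per condition. CD5 and CD6 are transmembrane receptors that associate with signaling proteins of the T cell antigen receptor, and LAT is the adaptor that relays its signal, and the study compared the genotypes to ask how far each is needed for the transcriptional response.

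DNMT1 copies methylation onto the new DNA strand after replication, with UHRF1 as its guide to hemimethylated CpG sites, whereas DNMT3A and DNMT3B methylate previously unmethylated sites. The TET enzymes oxidize 5-methylcytosine, which leads to its removal. PRC2 places H3K27me3 through EZH1 or EZH2, of which EZH2 is known from dividing cells and EZH1 from resting ones, and needs SUZ12 and EED as scaffold and as reader of the mark. In CD4+ T cells, DNMT3A and EZH2 are known for silencing the cytokine genes of alternative helper fates, and TET2 for helping to open them.

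Library totals ran from 20554354 to 45222554 counts in the CD5/CD6 experiment and from 17784644 to 28501095 in the LAT experiment, and the lowest count of any of the 10 genes in any library was 15, for Tet1. Lat lay between 92.2 and 351 CPM (read counts scaled to library size) in sorted WT libraries and between 5.69 and 19.1 in Lat-/- libraries. Its mean in sorted WT cells was 249, 309, and 98.3 CPM at 0, 4, and 20 h. The means in CD5/CD6 WT cells were higher, at 704, 1223, and 532 CPM, and the experiments were not tested against each other. Of the unstimulated libraries, library 2 labelled Cd5-/- held 719 CPM of Cd5 and library 2 labelled Cd6-/- held 1203 CPM of Cd6, against at most 129 and 349 in the other libraries of those labels. The same library 2 labelled Cd5-/- held 329 CPM of Cd6, against 1298 and 1084 in the other libraries of its label, and library 2 labelled Cd6-/- held 172 CPM of Cd5, against 724 and 719. Each of these 2 libraries thus went against its label at both genes and lay near the libraries of the other label. They were kept as labelled, and the results on the knockouts of CD5 and CD6 are also given without them. All 6 markers of CD4 T cells were detected in every group, with a summed level of 3033 to 8339.5 CPM that was lower at 20 h in sorted WT libraries (3149 to 3583) than in Lat-/- libraries (5328 to 6093). The 5 B cell markers summed to between 58.1 and 526 CPM at 0 h and 1.21 to 4.64 at 20 h in the CD5/CD6 experiment, and to at most 4.83 in the LAT experiment. Markers of other cell types also had lower sums after stimulation. From 0 h to 20 h in the CD5/CD6 experiment, 6 myeloid markers went from between 108 and 556 CPM to between 56.5 and 95.6, and 3 NK cell markers from between 5.35 and 41.9 to between 0.0282 and 1.10. In the same libraries 4 gamma delta T cell markers went from between 31.7 and 125 to between 3.98 and 19.9. The 2 CD8 T cell markers went from between 29.9 and 85.1 to between 15.9 and 30.8, and 2 regulatory T cell markers from between 29.0 and 67.5 to between 4.32 and 23.3. The part of these cells in the responses to stimulation was not tested. Values are from bulk RNA, so a change in the RNA of a gene per cell and a change in the share of cells that express it cannot be told apart.

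Promoter sequences of Dnmt1, Ezh2, and Suz12, and of the DNMT1 partners Uhrf1 and Hells, are shown because they hold a word of the kind that E2F factors, known from genes of DNA replication, bind. They were picked for this word. RefSeq windows of 250 bases before to 50 bases after a transcript start (GRCm38.p6) were at hand for all 10 genes. They were searched on both strands for the E2F words TTTCCCGC, TTTCGCGC, TTTGCCGC, and TTTGGCGC, which 2.26% of all 32851 windows hold. A word lay in a window of Dnmt1, where there were 2, and in those of Ezh2 and Suz12, as well as in those of Uhrf1 and Hells, and the windows of the other 7 genes of the list held none. Among these, Dnmt3a, Dnmt3b, and Eed were also higher at 20 h. The stretches around the words are given 5′ to 3′ on the strand of the gene, with the word in capitals, and the first Dnmt1 word reads TTTCGCGC on the opposite strand.
Dnmt1 (chr9:20952809-20952868, minus strand): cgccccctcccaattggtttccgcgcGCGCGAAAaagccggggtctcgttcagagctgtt
Dnmt1 (chr9:20952574-20952603, minus strand): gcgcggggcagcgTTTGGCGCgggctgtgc
Ezh2 (chr6:47595009-47595038, minus strand): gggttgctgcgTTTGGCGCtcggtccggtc
Suz12 (chr11:79992861-79992920, plus strand): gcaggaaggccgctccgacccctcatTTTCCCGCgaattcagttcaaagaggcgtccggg
Uhrf1 (chr17:56304102-56304161, plus strand): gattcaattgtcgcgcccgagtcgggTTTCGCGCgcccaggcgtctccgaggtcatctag
Hells (chr19:38930902-38930961, plus strand): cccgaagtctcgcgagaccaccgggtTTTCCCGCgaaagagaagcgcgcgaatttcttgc
With the transcript start counted as position 0, these words began at -219 and 33 in Dnmt1, 3 in Ezh2, -219 in Suz12, -185 in Uhrf1, and -62 in Hells. The E-box CACGTG, present in 7.15% of windows, lay in 1 of the 3 windows of Dnmt3a. The AP-1 word TGANTCA, present in 7.81%, lay in no window of the 10 genes, and an NF-kappaB word (GGGA, any 6 bases, CC), present in 19.4%, lay in windows of Dnmt1, Dnmt3a, Dnmt3b, and Tet3. The counts of CpG in these windows ranged from 2 in a window of Dnmt1 to 57 in that of Tet2, against a median of 7 over all windows. A match is a description of the letters and does not show a bound site.

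Stimulation of WT cells changed every gene of the list by 20 h, in the same direction in both experiments. Dnmt1, Dnmt3a, Dnmt3b, Ezh2, Suz12, and Eed were higher at 20 h than at 0 h, and Tet1, Tet2, Tet3, and Ezh1 were lower. Each of these calls rests on edgeR's quasi-likelihood test with an adjusted p under 0.05 over all genes tested. With a fold change above 2 also required, Suz12 lost its call in both experiments (log2 0.78 in CD5/CD6 and 0.95 in sorted WT cells). The share of all 32290 genes tested that passed in the CD5/CD6 experiment at 20 h was 16.9% higher and 21.1% lower, and of the 27780 genes of the LAT experiment 16.5% higher and 18.2% lower. Such shares, here and below, include genes with few reads. Only 10792 of the 32290 genes and 10151 of the 27780 averaged 50 or more counts, whereas every gene of the list averaged 243 or more. The share that passed among genes of similar depth was not computed, so these shares do not show that the list stands out from such genes. By 4 h, CD5/CD6 WT cells had 4 genes higher and 3 lower, where 13.3% and 15.2% of all genes passed, and 3 were higher and 3 lower in sorted WT cells, where 14.2% and 14.8% passed. Between 4 and 20 h, 4 genes rose and 4 fell in each experiment, against 13.8% and 16.7% of all genes in the CD5/CD6 experiment and 13.4% and 16.1% in the LAT experiment. The median log2 fold change of the list at 20 h was 1.01 and 1.07. With genes of as little as 1 read in total kept, the median of all genes tested was 0 in every comparison reported. It is therefore no baseline for these values.

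In stimulated Lat-/- cells, Dnmt1 and Tet1 were lower than at 0 h at both times, and Tet3 and Ezh1 were higher at 20 h. At 4 h, 1 gene was higher and 3 were lower than at 0 h, against 7.38% and 8.05% of all genes. This count of 4 was 7 by DESeq2 (3 higher and 4 lower) and 2 without library 1 of each group, and sorted WT cells at 4 h had 6 by edgeR and 7 by DESeq2. At 20 h, 2 were higher and 2 lower, against 5.35% and 5.34%. Compared with WT cells directly, Lat-/- cells had 1 gene lower at 0 h (all genes, 0.41% higher and 1.18% lower), 3 higher and 5 lower at 4 h (11.9% and 12.0%), and 4 higher and 6 lower at 20 h (17.6% and 17.6%). The response itself differed between the genotypes for 6 genes at 4 h, of which 2 were higher and 4 lower in Lat-/- cells (7.42% and 7.58%), and for all 10 at 20 h, 4 higher and 6 lower (13.5% and 12.8%). Without library 1 of each group, the direct comparison at 4 h gave 4 genes in place of 8. The responses at 4 h then differed for 2 genes in place of 6. No share of all genes is given for the fits without a library number or for DESeq2, so these counts cannot be set against all genes. The 0 h libraries of each genotype served as reference for its 4 h and 20 h responses, which therefore share them. Library 3 of Lat-/- cells at 20 h stood apart, with the lowest Tet1, Tet2, and Tet3 and the highest Uhrf1 of its group, and without it the counts at 20 h were again 10 for the direct comparison, 10 for the difference of response, and 4 for the response of Lat-/- cells.

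**Figure D1:**
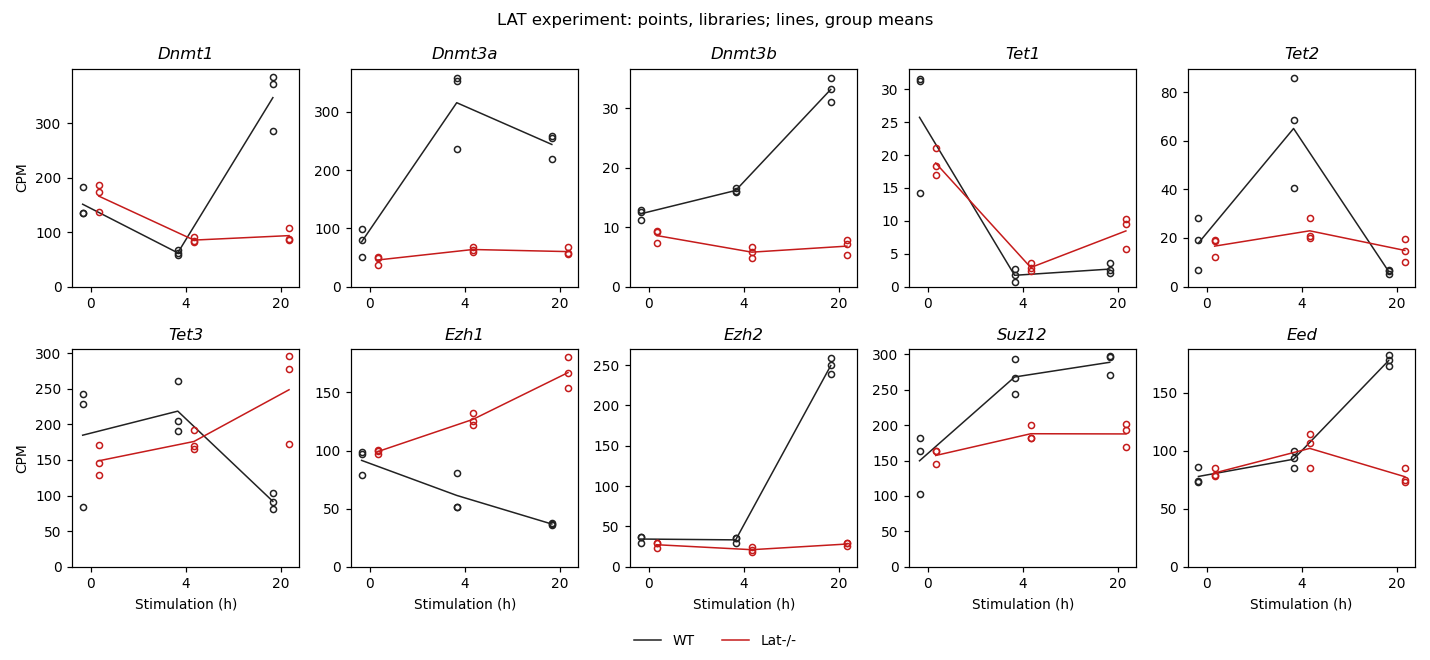
Level of each gene in the LAT experiment in CPM (y axis from 0, own scale per gene) at 0, 4, and 20 h of stimulation (x axis, categories not to scale), with 1 point per library (n = 3) and lines through group means, WT in black and Lat-/- in red. WT libraries of Ezh2 at 20 h lay between 239 and 258 CPM, and Lat-/- libraries between 26.1 and 29.6 CPM.

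Among the DNA methyltransferases, Dnmt1, the maintenance enzyme (ENSMUSG00000004099.16, chr9:20907209-20959888, minus strand, GRCm38), first fell and then rose in WT cells. In the LAT experiment its 3 WT libraries held 183, 134, and 135 CPM at 0 h, 61.8, 57.4, and 66.2 at 4 h, and 384, 371, and 285 at 20 h. The corresponding levels in Lat-/- libraries were 187, 174, and 137, then 84.2, 81.1, and 90.4, and then 108, 85.2, and 86.8 CPM. All WT libraries at 20 h lay above every other library, and all WT libraries at 4 h lay below every other. Dnmt1 fell in both genotypes by 4 h, with a log2 fold change of -1.29 ± 0.15, adjusted p = 4.05e-16 in WT and -0.96 ± 0.15, adjusted p = 6.65e-09 in Lat-/- cells, and the difference between these responses did not pass (0.33 ± 0.21, adjusted p = 0.400). The direct difference at 4 h was 0.46 ± 0.15, adjusted p = 0.0108, a call that was lost without library 1 of each group (adjusted p = 0.0859). By 20 h Dnmt1 had risen 2.29-fold over 0 h in WT cells (log2 1.20 ± 0.15, adjusted p = 1.97e-14) and was still below 0 h in Lat-/- cells (log2 -0.83 ± 0.15, adjusted p = 1.55e-06), a difference of response of -2.03 ± 0.21, adjusted p = 6.19e-20. The WT course was seen again in the CD5/CD6 experiment, with 147, 171, and 173 CPM at 0 h, 82.5, 84.0, and 52.2 at 4 h, and 495, 437, and 230.2 at 20 h, and log2 fold changes of -1.17 ± 0.24, adjusted p = 3.39e-05 at 4 h and 1.24 ± 0.24, adjusted p = 6.95e-06 at 20 h. Library 3 was the lowest of the 3 at 4 and at 20 h there, with the groups of the 3 times still separate.

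Dnmt3a, which encodes the main de novo methyltransferase of T cells (ENSMUSG00000020661.15, chr12:3806007-3914443, plus strand), rose early. Its sorted WT libraries held 99.4, 51.4, and 79.1 CPM at 0 h, 358, 353, and 236 at 4 h, and 255, 258, and 219 at 20 h, and the stimulated libraries did not overlap the unstimulated ones. In Lat-/- cells the libraries held 48.7, 37.5, and 50.7 CPM at 0 h, 68.1, 59.9, and 62.7 at 4 h, and 67.7, 56.7, and 55.6 at 20 h, so that no Lat-/- library reached the lowest stimulated WT library. The WT rise at 4 h was 4.11-fold (log2 2.04 ± 0.15, adjusted p = 7.96e-38), against 1.39-fold in Lat-/- cells (log2 0.48 ± 0.15, adjusted p = 0.0130), and the responses differed by -1.56 ± 0.21, adjusted p = 1.97e-11. The Lat-/- rise lost its call without library 1 of each group (adjusted p = 0.198) and without library 2 (adjusted p = 0.131). Lat-/- cells held 0.202 of the WT level at 4 h (log2 -2.31 ± 0.16, adjusted p = 9.31e-47) and 0.246 at 20 h (log2 -2.02 ± 0.16, adjusted p = 2.20e-37). At 20 h the WT level was 3.18-fold that of 0 h, and the Lat-/- value of 0.39 ± 0.15, adjusted p = 0.0765 did not pass. That Lat-/- value passed without library 3 of each group (log2 0.55, adjusted p = 0.0147) and in a fit of the compared groups alone (adjusted p = 0.0299). The responses at 20 h differed by -1.27 ± 0.21, adjusted p = 2.64e-08. Between 4 and 20 h the value in sorted WT cells was -0.37 ± 0.15, adjusted p = 0.0437, a call that was lost without library 1 (adjusted p = 0.580) or library 2 (adjusted p = 0.142) of each group and by DESeq2 (adjusted p = 0.177). The ratio of Dnmt3a to Dnmt3b in CPM per kb had a median of 6.53 in sorted WT cells at 4 h, against 2.17 at 0 h and 2.22 at 20 h.

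Dnmt3a was also the only gene of the list that passed as different between the genotypes before stimulation. Its level at 0 h was 76.7 ± 24.1 CPM (SD, n = 3) in WT and 45.6 ± 7.11 CPM in Lat-/- cells, a log2 fold change of -0.75 ± 0.15, adjusted p = 1.34e-04, with all Lat-/- libraries below all WT libraries. Leaving out library 1 of each group ended this call (log2 -0.58, adjusted p = 0.354), as did the stricter filter on low counts (adjusted p = 0.0771). All Lat-/- libraries at 0 h also lay below all WT libraries for Dnmt3b and Ezh2, which did not pass. Their log2 fold changes were -0.51 ± 0.20, adjusted p = 0.398, and -0.33 ± 0.16, adjusted p = 0.701. The 2 regulatory T cell markers, Foxp3 and Ikzf2, both detected in every group, summed to between 60.6 and 91.1 CPM in WT and between 19.5 and 34.8 CPM in Lat-/- libraries at 0 h, and the 4 gamma delta T cell markers to between 31.1 and 44.7 and between 14.4 and 16.4 CPM. The regulatory T cell markers remained apart at 4 h (50.1 to 71.2 against 7.04 to 29.0 CPM) and at 20 h (34.5 to 36.9 against 4.53 to 10.6 CPM). Their part in this and the other differences between WT and Lat-/- cells was not tested. In CD5/CD6 WT cells, Dnmt3a rose from 95.0, 102, and 88.1 CPM at 0 h to 459, 538, and 308 at 4 h (log2 2.20 ± 0.25, adjusted p = 6.84e-12) and held 312, 286, and 148 at 20 h (log2 1.39 ± 0.24, adjusted p = 1.22e-06).

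Dnmt3b, the second de novo enzyme (ENSMUSG00000027478.15, chr2:153649450-153687730, plus strand), was the least abundant methyltransferase relative to gene length. It was highest at 20 h in both WT groups. CD5/CD6 WT cells had means of 9.59, 22.1, and 38.8 CPM at 0, 4, and 20 h, with no overlap of libraries between the times. In the LAT experiment WT libraries held 12.9, 12.6, and 11.2 CPM at 0 h, 15.8, 16.6, and 16.0 at 4 h, and 35.1, 33.2, and 31.1 at 20 h. The Lat-/- libraries measured 9.13, 7.32, and 9.27 CPM, then 5.88, 4.81, and 6.66, and then 7.18, 5.34, and 7.86 CPM. Every Lat-/- library lay below every WT library at each of the 3 times. The rise at 20 h was 2.71-fold in WT cells (log2 1.44 ± 0.20, adjusted p = 7.26e-12), whereas the value in Lat-/- cells was -0.34 ± 0.21, adjusted p = 0.421. The level in Lat-/- cells at 20 h was 0.205 of that in WT (log2 -2.29 ± 0.21, adjusted p = 1.64e-26), and the responses differed by -1.78 ± 0.29, adjusted p = 9.18e-09. The 4 h value differed between the experiments' WT cells in its call, with 1.21 ± 0.17, adjusted p = 3.96e-09 in the CD5/CD6 experiment and 0.40 ± 0.20, adjusted p = 0.131 in the LAT experiment, and the tables were not tested against each other. The latter passed by DESeq2 (adjusted p = 0.0274). At 4 h in Lat-/- cells the value was -0.57 ± 0.21, adjusted p = 0.0492, a call that ended when any of the 3 library numbers was left out (adjusted p = 0.416, 0.0970, and 0.0677). The difference of the 4 h response was -0.97 ± 0.29, adjusted p = 0.00820, and it was lost without library 1 of each group (adjusted p = 0.175).

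The TET genes took 3 different courses. Tet1 (ENSMUSG00000047146.17, chr10:62804570-62908996, minus strand) encodes a TET enzyme with a CXXC domain, known from embryonic stem cells. It had the largest fall of the list in WT cells. Sorted WT libraries fell from 31.6, 14.3, and 31.3 CPM at 0 h to 0.701, 2.66, and 1.77 at 4 h and 3.51, 2.47, and 1.99 at 20 h, with no overlap between stimulated and unstimulated libraries. The log2 fold changes were -3.90 ± 0.25, adjusted p = 5.15e-52 at 4 h and -3.28 ± 0.24, adjusted p = 1.27e-40 at 20 h. In the CD5/CD6 experiment, the gene gave -4.15 ± 0.35, adjusted p = 6.57e-17 at 4 h and -3.69 ± 0.35, adjusted p = 1.96e-15 at 20 h in WT cells, which held 43.7, 43.6, and 34.1 CPM at 0 h. Lat-/- libraries fell from 21.1, 16.9, and 18.3 CPM to 3.52, 2.35, and 2.81 at 4 h and held 9.46, 10.2, and 5.72 at 20 h. Tet1 thus fell in Lat-/- cells at 4 h too (log2 -2.69 ± 0.24, adjusted p = 4.56e-27), but at 20 h by less than in WT cells (log2 -1.15 ± 0.22, adjusted p = 5.58e-06), and the responses differed by 2.13 ± 0.32, adjusted p = 3.03e-10. All 3 Lat-/- libraries lay above all WT libraries at 20 h. The difference of response at 4 h (1.22 ± 0.34, adjusted p = 0.00297) was lost without library 1 of each group (log2 0.65, adjusted p = 0.618), as was the direct difference at 4 h (log2 0.76 ± 0.26, adjusted p = 0.0163, and 0.26 with adjusted p = 0.810 without library 1), which DESeq2 did not call either (adjusted p = 0.0895).

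Tet2 (ENSMUSG00000040943.12, chr3:133463679-133545139, minus strand), an enzyme tied to cytokine gene activity in helper T cells, rose and fell within 20 h. In sorted WT cells its libraries went from 28.0, 6.74, and 19.0 CPM at 0 h to 68.7, 85.7, and 40.8 at 4 h and 6.93, 6.60, and 5.12 at 20 h. At 4 h all WT libraries lay above those of 0 h, and at 20 h all lay below those of 4 h, while 1 library of 0 h fell among those of 20 h. The log2 fold change was 1.86 ± 0.18, adjusted p = 3.90e-23 at 4 h against 0 h and -3.38 ± 0.20, adjusted p = 2.03e-64 at 20 h against 4 h, which left it below 0 h (log2 -1.53 ± 0.19, adjusted p = 5.42e-15). Libraries of Lat-/- cells held 19.3, 12.0, and 18.7 CPM at 0 h, 28.1, 20.8, and 19.9 at 4 h, and 19.8, 14.8, and 10.0 at 20 h, with neither response past the threshold (log2 0.47 ± 0.18, adjusted p = 0.0605 at 4 h, and log2 -0.17 ± 0.18, adjusted p = 0.694 at 20 h). All Lat-/- libraries of 4 h lay above those of 0 h. The 4 h value passed with RLE factors (adjusted p = 0.0416), in a fit of the compared groups alone (0.0310), and without library 3 of each group (0.0109). The sign of the direct difference turned with time. Lat-/- cells had less Tet2 than WT cells at 4 h (log2 -1.50 ± 0.18, adjusted p = 2.08e-15) and more at 20 h (log2 1.25 ± 0.19, adjusted p = 2.25e-10), and both differences of response passed (-1.39 ± 0.25, adjusted p = 1.01e-06 at 4 h and 1.36 ± 0.26, adjusted p = 1.52e-06 at 20 h). The latter was lost without library 1 of each group (log2 0.82, adjusted p = 0.121). The peak in CD5/CD6 WT cells was 86.2, 146, and 58.5 CPM at 4 h, from 20.9, 30.8, and 18.9 at 0 h, with 9.25, 6.63, and 2.93 at 20 h, and its log2 fold changes were 2.05 ± 0.32, adjusted p = 1.71e-07 at 4 h and -1.90 ± 0.33, adjusted p = 1.22e-06 at 20 h.

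Tet3 (ENSMUSG00000034832.15, chr6:83362373-83459084, minus strand) was the most abundant TET gene relative to gene length at 0 h. It held 15.5 CPM per kb in CD5/CD6 WT cells, against 2.62 for Tet1 and 1.40 for Tet2. It did not pass at 4 h in either WT group or in Lat-/- cells, although without library 3 of each group it did in both WT groups (log2 0.38, adjusted p = 0.0150 in CD5/CD6 and log2 0.50, adjusted p = 0.00966 in sorted WT cells). At 20 h it moved in opposite directions in the 2 genotypes of the LAT experiment. Sorted WT libraries held 242, 84.3, and 228 CPM at 0 h, 205, 260.4, and 190.3 at 4 h, and 103, 91.3, and 80.9 at 20 h, where library 2 of 0 h lay with those of 20 h. Lat-/- libraries held 146, 129, and 171 CPM at 0 h, 192, 165, and 170.3 at 4 h, and 295, 278, and 173 at 20 h. The log2 fold change at 20 h was -1.01 ± 0.15, adjusted p = 1.56e-10 in WT and 0.74 ± 0.15, adjusted p = 2.33e-05 in Lat-/- cells, and the responses differed by 1.75 ± 0.21, adjusted p = 3.75e-15. Lat-/- cells held 2.71-fold the WT level at 20 h (log2 1.44 ± 0.15, adjusted p = 3.67e-20). The rise in Lat-/- cells lost its call without library 1 of each group (log2 0.60, adjusted p = 0.0716) and with the stricter filter on low counts (adjusted p = 0.0598). Library 2 of sorted WT cells at 0 h was also the lowest of its group for Dnmt3a, Tet1, Tet2, and Suz12, and without library 2 of each group Tet3 passed at 0 h as lower in Lat-/- cells (log2 -0.57, adjusted p = 0.0439). CD5/CD6 WT cells fell from 284, 269.5, and 222 CPM at 0 h to 122, 87.8, and 47.2 at 20 h (log2 -1.59 ± 0.28, adjusted p = 1.58e-06).

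**Figure D2:**
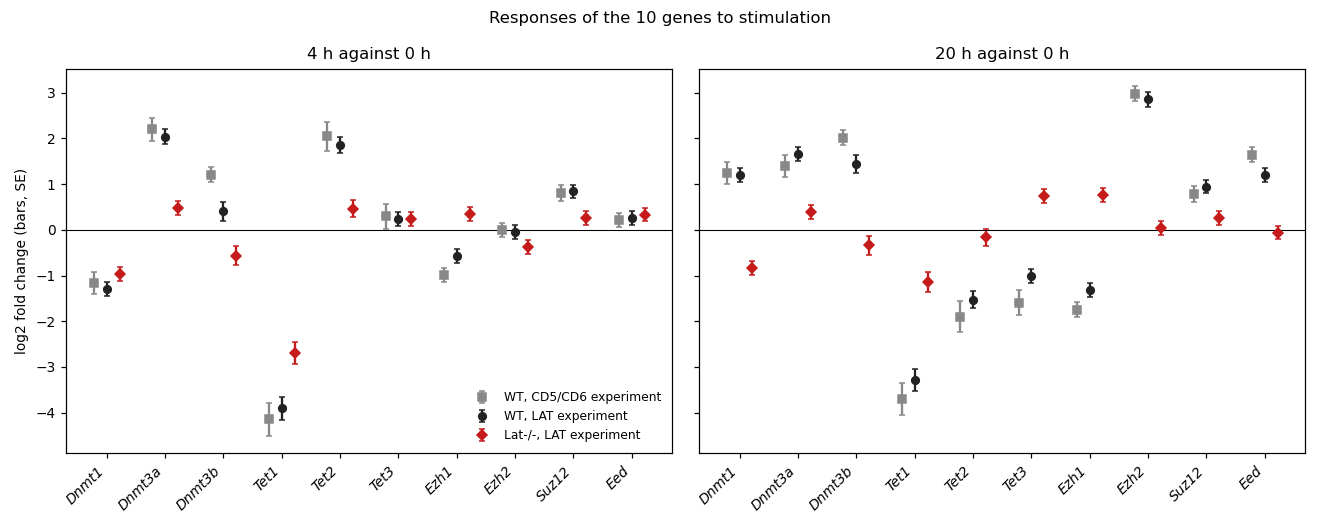
Log2 fold change against 0 h (y axis, bars SE) of each gene (x axis) at 4 h (left) and 20 h (right) in CD5/CD6 WT cells (grey squares), sorted WT cells (black circles), and Lat-/- cells (red diamonds), 3 libraries per condition. At 20 h the points of both WT groups lie on the same side of 0 for all 10 genes, and Lat-/- points for Ezh1 and Tet3 lie above 0 where WT points lie below.

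The catalytic subunits of PRC2 went in opposite directions in stimulated WT cells. Ezh1 (ENSMUSG00000006920.14, chr11:101191115-101226463, minus strand) fell at both times. Sorted WT libraries held 99.0, 79.0, and 96.6 CPM at 0 h, 51.7, 51.6, and 80.9 at 4 h, and 37.5, 35.9, and 36.8 at 20 h. The log2 fold changes were -0.58 ± 0.15, adjusted p = 7.60e-04 at 4 h and -1.32 ± 0.15, adjusted p = 1.94e-16 at 20 h, of which the 4 h call was lost without library 1 of each group (adjusted p = 0.122). In Lat-/- cells the value was 0.36 ± 0.15, adjusted p = 0.101 at 4 h, which passed by DESeq2 (adjusted p = 0.0333). Their libraries held 101, 99.7, and 96.8 CPM at 0 h, 126, 133, and 122 at 4 h, and 167, 180.4, and 154 at 20 h, with every library of 20 h above every library of the other times and genotype. Ezh1 rose 1.69-fold at 20 h (log2 0.75 ± 0.15, adjusted p = 2.14e-05), the level in Lat-/- cells at 20 h was 4.55-fold that in WT cells (log2 2.18 ± 0.16, adjusted p = 7.20e-42), and the responses differed by 2.07 ± 0.22, adjusted p = 3.97e-20. The difference of response at 4 h was 0.93 ± 0.21, adjusted p = 2.13e-04, with adjusted p = 0.0680 without library 1. In the CD5/CD6 experiment, WT libraries fell from 84.5, 86.4, and 85.6 CPM at 0 h to 40.3, 47.3, and 41.5 at 4 h and 28.1, 26.3, and 22.2 at 20 h (log2 -1.74 ± 0.16, adjusted p = 3.12e-16).

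Ezh2 (ENSMUSG00000029687.16, chr6:47530139-47595341, minus strand) had the highest rise of the list and rose only in the later interval. Sorted WT libraries held 36.6, 30.0, and 36.4 CPM at 0 h, 35.2, 29.6, and 35.0 at 4 h, and 258, 251, and 239 at 20 h. The value at 4 h was -0.04 ± 0.16, adjusted p = 0.972 on the log2 scale, and that at 20 h was 7.26-fold (log2 2.86 ± 0.16, adjusted p = 1.09e-65). In Lat-/- cells the libraries held 28.9, 23.2, and 29.8 CPM at 0 h, 18.1, 24.4, and 20.9 at 4 h, and 28.8, 26.1, and 29.6 at 20 h, so that the libraries of 4 h lay below those of 20 h and overlapped those of 0 h. The value at 4 h was -0.37 ± 0.16, adjusted p = 0.105, which passed by DESeq2 (adjusted p = 0.0355), with the stricter filter (0.0463), by library totals (0.0326), and without library 2 of each group (log2 -0.62, adjusted p = 0.00587). The value at 20 h in Lat-/- cells was 0.04 ± 0.16, adjusted p = 1, and the responses differed by -2.82 ± 0.22, adjusted p = 3.22e-34. Lat-/- cells held 0.113 of the WT level at 20 h (log2 -3.15 ± 0.17, adjusted p = 4.05e-77). A smaller difference was measured at 4 h, where it was -0.66 ± 0.16, adjusted p = 2.50e-04, and this call was lost without library 1 of each group (adjusted p = 0.138). CD5/CD6 WT cells showed the same course, with 36.6, 39.5, and 30.9 CPM at 0 h, 34.5, 39.4, and 33.5 at 4 h, and 306, 289, and 251 at 20 h (log2 2.98 ± 0.16, adjusted p = 6.56e-27).

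Relative to gene length, Ezh1 was the more abundant of this pair in unstimulated cells and Ezh2 in WT cells after 20 h. The ratio of Ezh2 to Ezh1 in CPM per kb was 0.412, 0.420, and 0.423 in sorted WT libraries at 0 h, from the lowest to the highest, and 7.25, 7.66, and 7.77 at 20 h. In the CD5/CD6 experiment WT libraries went from 0.403 to 0.509 at 0 h and 0.898 to 0.954 at 4 h to a range of 12.1 to 12.6 at 20 h, and Cd5-/-, Cd6-/-, and Cd5-/-Cd6-/- libraries lay between 13.0 and 16.4 at 20 h. The ratios were not tested, and neither gene alone differed from WT in these knockouts by the test across all genes. In Lat-/- libraries the ratio was 0.259 to 0.343 at 0 h, 0.160 to 0.205 at 4 h, and 0.161 to 0.214 at 20 h. No Lat-/- library reached 1 at any time. The mean log2 ratio at 20 h was 2.92 ± 0.05 in WT and -2.41 ± 0.21 in Lat-/- cells (SD, n = 3).

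**Figure D3:**
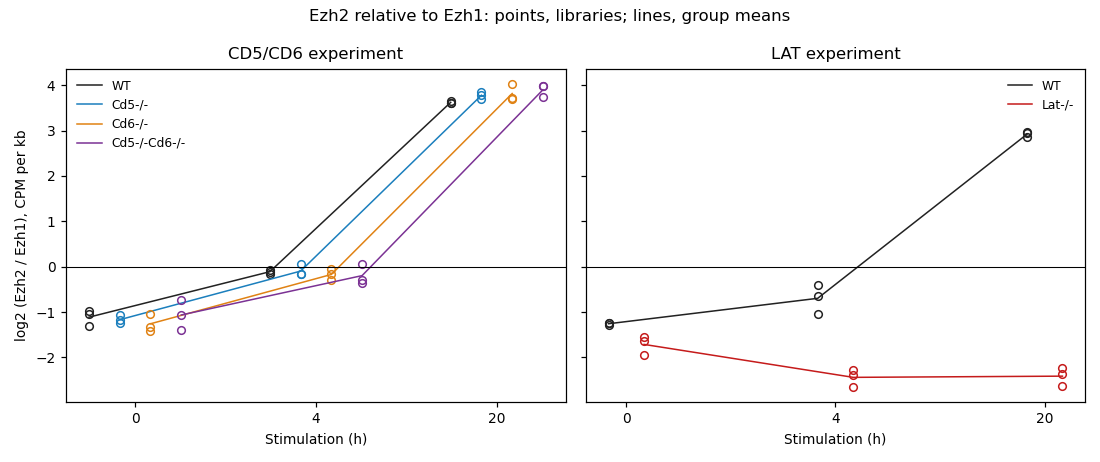
Log2 ratio of Ezh2 to Ezh1, both in CPM per kb (y axis, with the line at equal levels), at 0, 4, and 20 h (x axis, categories) in the CD5/CD6 experiment (left) and the LAT experiment (right), 1 point per library (n = 3) with lines through group means. Points at 20 h lie above the line in WT, Cd5-/-, Cd6-/-, and Cd5-/-Cd6-/- libraries and below it in all Lat-/- libraries.

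The core subunits Suz12 and Eed, which EZH1 and EZH2 share, had smaller changes than Ezh2 in WT cells. Suz12 (ENSMUSG00000017548.15, chr11:79993106-80034123, plus strand) had the highest level per length of the list at 0 h, 39.2 CPM per kb in CD5/CD6 WT cells. Sorted WT libraries held 164, 103, and 182 CPM at 0 h, 266, 294, and 244 at 4 h, and 298, 297, and 272 at 20 h. Stimulated and unstimulated libraries did not overlap. The log2 fold changes were 0.84 ± 0.15, adjusted p = 1.47e-07 at 4 h and 0.95 ± 0.15, adjusted p = 1.71e-09 at 20 h. The Lat-/- libraries measured 145, 164, and 163 CPM at 0 h, 199.8, 182, and 183 at 4 h, and 201, 193, and 169 at 20 h, and neither response passed. Lat-/- cells were below WT cells at 4 h (log2 -0.51 ± 0.15, adjusted p = 0.00333) and at 20 h (log2 -0.62 ± 0.15, adjusted p = 1.25e-04). The difference of the 20 h response (-0.69 ± 0.21, adjusted p = 0.00489) was lost without library 2 of each group (log2 -0.40, adjusted p = 0.239), as was that of 4 h (-0.58 ± 0.21, adjusted p = 0.0386, and adjusted p = 0.786 without library 2 and 0.130 without library 1). The direct difference at 4 h missed the threshold without library 1 (adjusted p = 0.0599) and without library 2 (adjusted p = 0.0707).

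Eed (ENSMUSG00000030619.10, chr7:89954654-89980983, minus strand), whose product binds H3K27me3, followed the later course of Ezh2. Sorted WT libraries held 74.3, 85.9, and 73.3 CPM at 0 h, 93.6, 85.0, and 99.6 at 4 h, and 173, 178, and 183 at 20 h, and the libraries of 20 h stood above all others. The log2 fold change was 0.25 ± 0.15, adjusted p = 0.244 at 4 h and 1.19 ± 0.15, adjusted p = 5.71e-14 at 20 h. Libraries of Lat-/- cells held 79.2, 84.8, and 78.6 CPM at 0 h, 115, 106, and 85.3 at 4 h, and 74.7, 73.0, and 85.2 at 20 h. In Lat-/- cells the value at 4 h was 0.34 ± 0.15, adjusted p = 0.133, which passed by DESeq2 (adjusted p = 0.0177). That at 20 h was -0.06 ± 0.15, adjusted p = 1, the level relative to WT was -1.20 ± 0.15, adjusted p = 4.49e-14 on the log2 scale, and the responses differed by -1.25 ± 0.21, adjusted p = 5.71e-08. In CD5/CD6 WT cells, Eed rose 3.12-fold at 20 h (log2 1.64 ± 0.16, adjusted p = 6.47e-15), and Suz12 rose 1.72-fold (log2 0.78 ± 0.17, adjusted p = 8.37e-05). Summed over Ezh1 and Ezh2, the catalytic subunits stood at 42.3 ± 1.46 CPM per kb in WT and 26.7 ± 1.50 in Lat-/- cells at 20 h of the LAT experiment (SD, n = 3), against 17.4 ± 2.03 and 17.4 ± 0.499 at 0 h.

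Ranked by mean level within the LAT experiment, WT cells at 20 h stood first for Dnmt1, Dnmt3b, Ezh2, Suz12, and Eed, WT cells at 4 h for Dnmt3a and Tet2, WT cells at 0 h for Tet1, and Lat-/- cells at 20 h for Tet3 and Ezh1. The libraries of the first group overlapped those of the next one for Dnmt3a and Suz12 (WT at 4 and 20 h), Tet1 (WT and Lat-/- at 0 h), and Tet3 (Lat-/- at 20 h and WT at 4 h), and did not for the other genes. The share of all genes with such a separation was not computed. WT cells at 4 h stood last for Dnmt1 and Tet1, and WT cells at 20 h for Tet2, Tet3, and Ezh1.

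The partners of DNA methylation moved in both directions, and Uhrf1 and Hells among them had larger fold changes than any of the 10 genes. Of 18 listed partners, 5 were higher and 6 lower at 20 h in CD5/CD6 WT cells, with a median log2 fold change of -0.07, and of the 17 tested in the LAT experiment 5 were higher and 5 lower in WT cells and 6 higher and 0 lower in Lat-/- cells. Of all genes, 16.9% were higher and 21.1% lower in CD5/CD6 WT cells, 16.5% and 18.2% in sorted WT cells, and 5.35% and 5.34% in Lat-/- cells. Uhrf1, the partner that recruits DNMT1, rose from 4.98, 5.33, and 5.74 CPM at 0 h to 450.3, 462, and 383 at 20 h in sorted WT cells (log2 6.33 ± 0.20, adjusted p = 1.46e-226). Lat-/- libraries held 9.91, 3.19, and 23.2 CPM at 20 h, where library 3 was the highest, with a log2 fold change of 1.90 ± 0.18, adjusted p = 1.62e-23 and a difference of response of -4.43 ± 0.25, adjusted p = 8.02e-68. Hells, a chromatin remodeler needed for methylation of repeats, gave 5.54 ± 0.19, adjusted p = 4.39e-188 in WT cells and 0.88 ± 0.17, adjusted p = 5.02e-06 in Lat-/- cells at 20 h, and the responses differed by -4.66 ± 0.24, adjusted p = 2.54e-82. Tdg, the glycosylase that excises the oxidized bases made by TET enzymes, rose at 4 h in WT cells (log2 2.17 ± 0.25, adjusted p = 4.94e-17), from 3.92, 2.93, and 3.82 CPM at 0 h to 16.8, 19.0, and 12.4, with 0.64 ± 0.26, adjusted p = 0.0788 in Lat-/- cells. Its responses differed by -1.53 ± 0.35, adjusted p = 2.27e-04 at 4 h. The 7 replication genes (Mcm2 to Mcm7 and Pcna) were all higher at 20 h in both WT groups, with median log2 fold changes of 3.55 and 3.34, and 4 of the 7 were higher in Lat-/- cells, with a median of 0.48 (all genes 16.9%, 16.5%, and 5.35% higher).

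Most of the other listed PRC2 genes were higher in WT cells at 20 h. This list is called accessory below, but it also holds the subunit genes Rbbp4 and Rbbp7. Of 9 listed, 6 were higher and 3 lower at 20 h in CD5/CD6 WT cells (median log2 fold change 0.74), 6 were higher and 2 lower in sorted WT cells (median 0.78), and 2 were higher and 0 lower in Lat-/- cells (median 0.32). Of all genes, 16.9%, 16.5%, and 5.35% were higher and 21.1%, 18.2%, and 5.34% lower. Phf19, which links PRC2 to CpG-rich sites, fell at 4 h in sorted WT cells (log2 -1.34 ± 0.29, adjusted p = 2.47e-05) and was above 0 h at 20 h (log2 3.00 ± 0.26, adjusted p = 1.97e-28), with a mean of 3.02 ± 0.285 CPM at 0 h and 24.2 ± 0.940 CPM at 20 h. In Lat-/- cells at 20 h it was 2.41 ± 0.490 CPM, and its responses differed by -3.73 ± 0.37, adjusted p = 8.77e-22. Jarid2, an accessory subunit of another PRC2 form, peaked at 4 h in WT cells, from 74.9, 56.3, and 61.3 to 275, 273, and 235 CPM (log2 2.02 ± 0.16, adjusted p = 2.82e-36), and was below 0 h at 20 h (log2 -0.91 ± 0.15, adjusted p = 2.62e-08). Its rise at 4 h in Lat-/- cells was 0.71 ± 0.15, adjusted p = 5.46e-05, and the responses differed by -1.31 ± 0.22, adjusted p = 4.88e-08. Mtf2 rose in both genotypes at 20 h, by 0.73 ± 0.15, adjusted p = 1.07e-05 in WT and 0.54 ± 0.15, adjusted p = 0.00696 in Lat-/- cells, and the difference of response was -0.19 ± 0.22, adjusted p = 0.692. The histone chaperones Rbbp4 and Rbbp7 rose at 20 h in WT cells (log2 0.97 ± 0.15, adjusted p = 3.34e-10, and log2 1.75 ± 0.15, adjusted p = 1.51e-29), with differences of response of -0.65 ± 0.21 and -1.40 ± 0.21 (adjusted p = 0.00814 and 3.08e-10).

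PRC1, the complex that places ubiquitin on histone H2A, changed in both directions. Of its 22 listed genes, 10 were higher and 8 lower at 20 h in CD5/CD6 WT cells (median log2 fold change -0.06), 9 were higher and 7 lower in sorted WT cells (0.05), and 3 were higher and 3 lower in Lat-/- cells (0.07). The shares of all genes were 16.9% higher and 21.1% lower, 16.5% and 18.2%, and 5.35% and 5.34%. Bmi1 rose from 57.2 ± 8.62 CPM at 0 h to 169 ± 21.8 CPM at 4 h in WT cells (log2 1.57 ± 0.15, adjusted p = 1.33e-22), whereas Lat-/- cells gave 0.00 ± 0.15, adjusted p = 1, and the responses differed by -1.57 ± 0.22, adjusted p = 3.11e-11. Of the chromodomain subunits, Cbx2 was higher (log2 1.37 ± 0.18, adjusted p = 6.34e-14) and Cbx7 lower (log2 -1.15 ± 0.15, adjusted p = 8.28e-13) at 20 h in WT cells, and the Cbx7 response differed in Lat-/- cells by 1.30 ± 0.22, adjusted p = 1.75e-08. Rnf2, the catalytic subunit, rose at 4 h in WT (log2 0.76 ± 0.15, adjusted p = 2.94e-06) and in Lat-/- cells (log2 0.68 ± 0.15, adjusted p = 9.10e-05), with a difference of response of -0.08 ± 0.21, adjusted p = 1.

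Among the 5 listed erasers of the marks of PRC2 and PRC1, 1 was higher and 4 lower at 20 h in CD5/CD6 WT cells, 0 higher and 3 lower in sorted WT cells, and 0 passed in Lat-/- cells, against 21.1%, 18.2%, and 5.34% of all genes lower. Set directly against WT cells at 20 h, Lat-/- cells had 4 of the 5 erasers higher and 0 lower (median log2 difference 0.90) and 0 replication genes higher and 7 lower (-2.67). They had 6 partners higher and 5 lower (0.33), 3 genes of the accessory list higher and 5 lower (-0.58), and 9 PRC1 genes higher and 9 lower (0.05). Of all genes 17.6% were higher and 17.6% lower. Kdm6b, an H3K27 demethylase, had a sharp early peak. Sorted WT libraries went from 132, 67.5, and 99.7 CPM at 0 h to 1205, 1113, and 868 at 4 h and 67.2, 62.2, and 43.0 at 20 h, and Lat-/- libraries from 139.8, 122, and 128 to 234, 213, and 236 and 125, 114, and 82.8. The 4 h values were 3.41 ± 0.16, adjusted p = 9.71e-96 in WT and 0.81 ± 0.15, adjusted p = 1.31e-06 in Lat-/- cells, and the responses differed by -2.60 ± 0.21, adjusted p = 2.41e-31. Kdm6a, its X-linked relative, fell at 20 h in WT cells (log2 -0.75 ± 0.15, adjusted p = 3.95e-06), and its responses differed by 0.82 ± 0.21, adjusted p = 7.22e-04. Bap1, which removes ubiquitin from histone H2A, did not pass in either genotype of the LAT experiment (log2 0.31 ± 0.15, adjusted p = 0.104 at 20 h in WT).

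No gene of the list passed as different between WT cells and cells labelled as lacking CD5, CD6, or both. In stimulated cells of the 3 knockouts, 51 of 60 gene responses were called (30 higher and 21 lower), against 32.5% of all gene responses. Leaving out the 2 unstimulated libraries that went against their labels gave 52. For each gene, all 4 genotypes of the CD5/CD6 experiment had the same call in the same direction at 4 h and at 20 h. Without these 2 libraries Tet3 at 4 h was the exception, higher in 1 of the 4. The log2 fold change of Ezh2 at 20 h lay between 2.98 and 3.19 over the 4 genotypes, that of Dnmt3a at 4 h between 1.69 and 2.21, that of Tet2 at 4 h between 1.88 and 2.47, and that of Tet1 at 20 h between -4.09 and -3.69. Without the 2 libraries these ranges were 2.93 to 3.15, 1.66 to 2.35, 1.86 to 2.74, and -4.10 to -3.50.

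**Figure D4:**
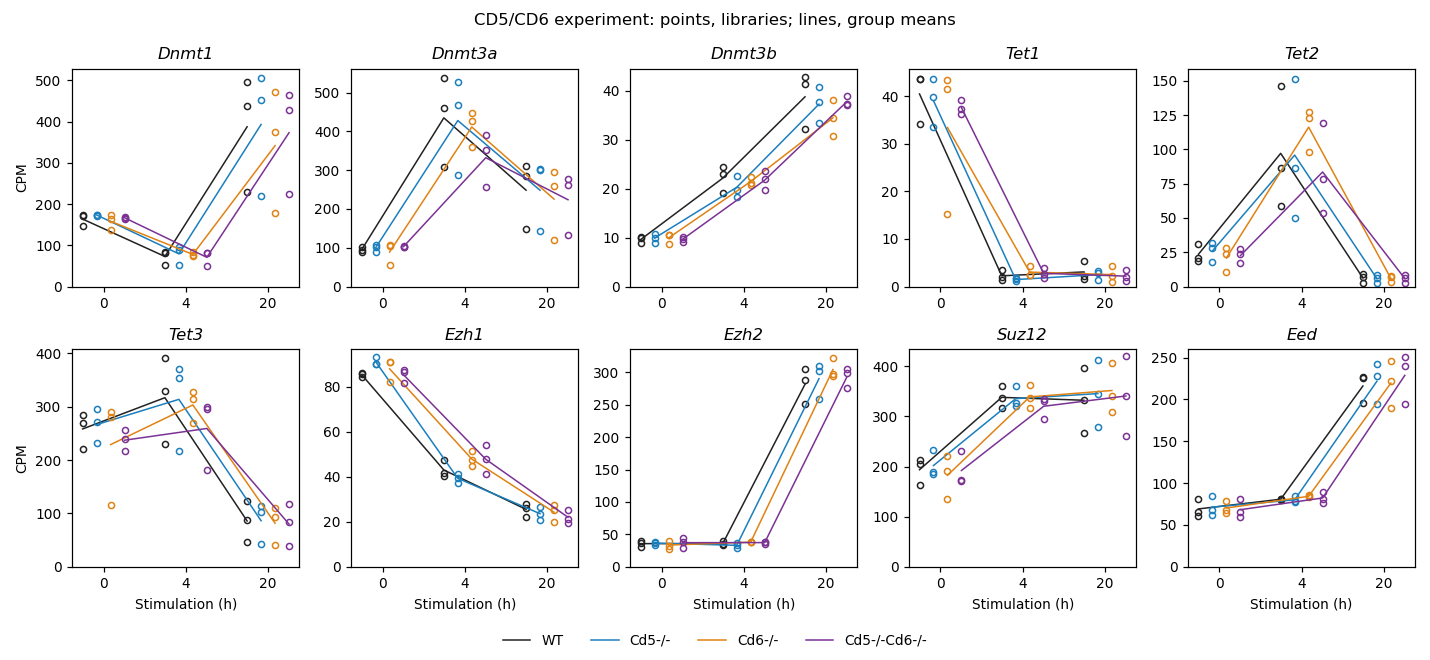
Level of each gene in the CD5/CD6 experiment in CPM (y axis from 0, own scale per gene) at 0, 4, and 20 h of stimulation (x axis, categories not to scale, genotypes set side by side), with 1 point per library (n = 3) and lines through group means. Ezh2 lay between 251 and 322 CPM at 20 h over all 12 libraries of the 4 genotypes.

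Direct comparison of each knockout with WT cells gave 0 calls in 90 (10 genes, 3 knockouts, 3 times) by edgeR's quasi-likelihood test, where 0.0344% of all comparisons of genes passed. By the same test 0 of the 90 had an unadjusted p under 0.05, and DESeq2 called 0. Without the 2 libraries that went against their labels edgeR again called 0. The count at an unadjusted p under 0.05 was then 2 of 90, Tet1 in Cd5-/- cells and Dnmt3a in Cd5-/-Cd6-/- cells, both at 4 h and lower than in WT. The lowest adjusted p of the 90 was 0.984. The share of all genes under this unadjusted threshold was not computed, so these 2 do not stand out. All 3 knockouts were set against the same WT libraries. The log2 differences lay between -0.39 and 0.26 except for Tet1, the gene with the fewest reads, for which they reached -0.64 and 0.42. Without the 2 libraries they lay between -0.45 and 0.26 and reached -0.62 and 0.42 for Tet1. The bounds of the 95% intervals (normal approximation) bear on what these data could have missed. Over the 9 comparisons they stayed between -0.42 and 0.41 for Ezh2, between -0.51 and 0.45 for Ezh1, between -0.32 and 0.38 for Eed, between -0.49 and 0.38 for Dnmt3b, and between -0.42 and 0.41 for Suz12, but they reached -0.64 and 0.58 for Dnmt1, -0.83 and 0.58 for Tet3, -0.86 and 0.59 for Dnmt3a, -0.82 and 0.86 for Tet2, and -1.35 and 1.08 for Tet1. Without the 2 libraries the bounds of the first 5 genes stayed between -0.51 and 0.48. Those of the others reached -0.56 and 0.52 for Dnmt1, -0.87 and 0.43 for Tet3, -0.78 and 0.49 for Dnmt3a, -0.98 and 0.72 for Tet2, and -1.20 and 0.96 for Tet1. Among single values, the lowest unadjusted p was 0.0810, for Tet1 in Cd5-/- cells at 4 h (log2 -0.64 ± 0.36). Dnmt3a in Cd5-/-Cd6-/- cells at 4 h held 351, 389.6, and 256 CPM against 459, 538, and 308 in WT, with overlapping libraries and a log2 difference of -0.39 ± 0.24 (adjusted p = 1). Library 3 of Cd6-/- cells at 0 h was the lowest of its group for Dnmt3a, Tet1, Tet2, and Tet3, with 55.9, 15.1, 10.9, and 117 CPM. The differences of the 4 h and 20 h responses from those of WT cells gave 0 calls in 60 by edgeR, where 0.00155% of all such differences passed. By edgeR 0 of the 60 had an unadjusted p under 0.05, and DESeq2 called 0. Their log2 values lay between -0.59 and 0.69. Without the 2 libraries edgeR again called 0 of these, and the values lay between -0.54 and 0.94. The count at an unadjusted p under 0.05 was then 2 of 60, the 4 h responses of Tet1 and Tet2 in Cd6-/- cells. The lowest adjusted p of the 60 was 0.9999, and the share of all genes was again not computed. The partner, accessory, PRC1, eraser, and replication lists also had 0 members called in these comparisons, with and without the 2 libraries.

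**Figure D5:**
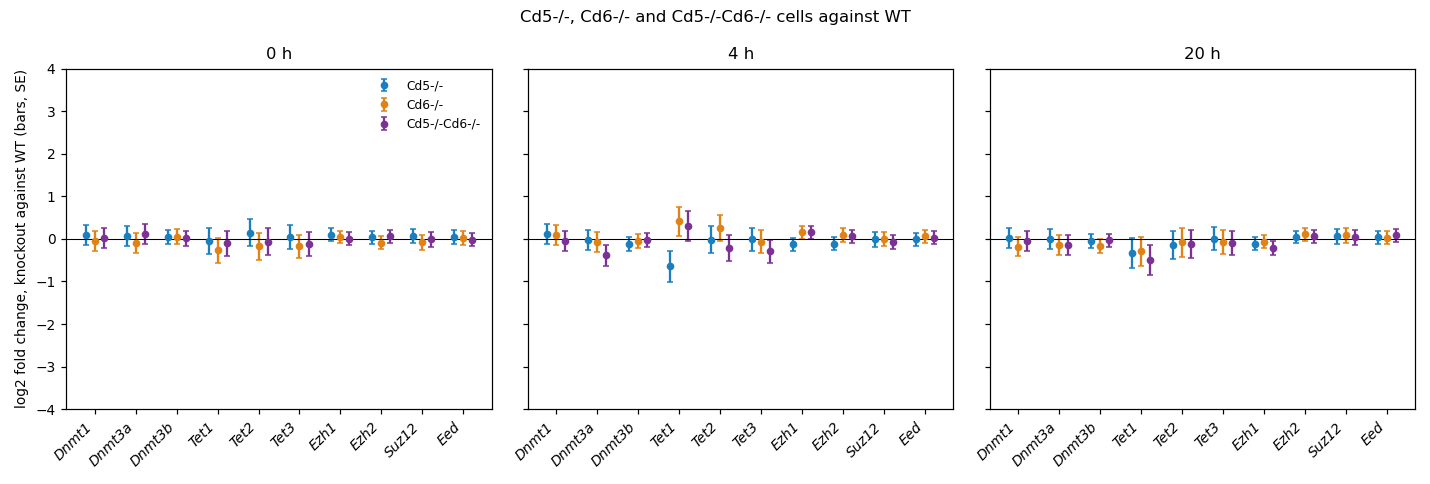
Log2 fold change of Cd5-/- (blue), Cd6-/- (orange), and Cd5-/-Cd6-/- (purple) cells against WT cells (y axis, bars SE) for each gene (x axis) at 0, 4, and 20 h, 3 libraries per condition. All 90 points lie between -0.64 and 0.42, both of them Tet1.

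Genes whose course most resembled that of each member were taken by Pearson's r of log2 CPM over the 36 libraries of the CD5/CD6 experiment, among the 10792 genes averaging 50 or more counts. For Ezh2 they were Hells, Wdhd1, and Mcm4, with r = 0.996, 0.993, and 0.993, and r = 0.957, 0.976, and 0.933 over the 18 libraries of the LAT experiment. For Dnmt1 they were Hdac7, Rpap1, and Timeless (0.979, 0.976, and 0.974, and in the LAT libraries 0.931, 0.946, and 0.808), and for Eed Orc6, Mrpl40, and Pkm (0.993, 0.992, and 0.992, and 0.923, 0.916, and 0.835). Genes near Ezh1 were Pbxip1 and Fgd3 (0.995 and 0.994), those near Tet1 were Rbl2 and Ssh1 (0.990 and 0.988), and those near Tet3 were Ash1l, Bcl9, and Secisbp2l (0.994, 0.993, and 0.991). Tet2 was nearest to Fbxo11, Jarid2, and Gripap1 (0.986, 0.985, and 0.983), and Dnmt3b to Pabpc4, Akap1, and Mthfd1 (0.991, 0.990, and 0.988). Suz12 was nearest to Papola, Ubap2l, and Dhx9 (0.966, 0.965, and 0.962), and genes near Dnmt3a were Ascc2 and Urb1 (0.989 and 0.988). The 36 libraries fall into 3 time points and are not independent samples of the course, so the coefficients are descriptions without a test. Of the pairs named, Papola and Suz12 had the largest drop of the coefficient over the LAT libraries, to 0.614.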

How the data were processed

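RNA was sequenced from naive CD4+ T cells of 54 libraries. The authors deposited, for each experiment, 1 table of read counts per gene without normalization. Their single reads from stranded mRNA libraries were cleaned of adapter dimers (DimerRemover), aligned by STAR to GRCm38, and assigned to genes by featureCounts (bcl2fastq 2.17.1.14, per the submitters' processing notes). The annotation release, the strand setting, and the handling of multiply mapping reads were not given in the sources used here. Annotated genes that overlap the 10 genes held at most 26 counts in any library where they were counted. All per-sample columns were used (0 left out), and 55144 of 55385 identifiers were named through GENCODE on GRCm38. Groups and replicate numbers came from the labels. The study calls the 3 samples of a condition independent preparations and does not say whether each came from separate animals, so p-values measure the spread between these preparations. Replicates differed by more than sampling noise (chi-square per degree of freedom 12.8 to 157 and 3.02 to 106).

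Each table was fitted on its own in R 4.3.3 with edgeR 4.0.16 (genes with at least 1 read in total, TMM factors, 1 coefficient per genotype and time, quasi-likelihood test), with Benjamini-Hochberg adjustment over all genes tested and a call at adjusted p under 0.05. CPM used TMM-scaled library totals, and the SE is the log2 fold change divided by the square root of F. CPM per kb divides CPM by the gene length deposited with the counts, so comparisons between genes depend on that length. Log2 CPM for correlations had a prior count of 2. The procedure was tested on simulated data. The genes, lists, and tests were chosen with earlier results of these data known. The text names all 10 genes, the targeted genes, and 15 genes of the partner, PRC2, PRC1, and eraser lists, and the 3 genes nearest to each member, of which some are not reported here.

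Alternatives were DESeq2 1.42.0, RLE factors, library totals, filterByExpr, the replicate block, separate fits of the groups compared, leaving out each replicate number or the 2 libraries at 0 h that went against their labels, and a fold change above 2. A fit without library 3 of Lat-/- cells at 20 h was added after seeing the data. Same-numbered libraries deviated together (r above 0.1 for every number) in 17 of the 18 comparisons of 2 groups in the CD5/CD6 experiment and 2 of 8 in the LAT experiment, with no source for the pairing but the number. In the LAT experiment both genotypes were sorted from Lat fl-dtr maT-Cre mice. The study does not say whether libraries of the same number came from the same animals. SE and intervals in the text take no account of a pairing.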

Additional observations from a re-analysis of the deposited data

Results flagged for a closer look

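The response to stimulation differed between Lat-/- and WT cells for the genes below by the test of the difference itself (edgeR's quasi-likelihood test, adjusted p under 0.05 over all 27780 genes). Values are log2 differences of response, Lat-/- minus WT, and their SE and adjusted p stand in the text above for the genes of the list. At 4 h, the methyltransferases and TET genes that differed were Dnmt3a -1.56, Dnmt3b -0.97, Tet1 1.22, Tet2 -1.39, and the PRC2 genes were Ezh1 0.93, Suz12 -0.58. The partner, accessory, PRC1, and eraser genes named in the text that differed at 4 h were Tdg -1.53, Rbbp7 -1.01, Jarid2 -1.31, Bmi1 -1.57, Cbx2 1.22, Kdm6b -2.60.

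At 20 h all 10 genes differed. The methyltransferases and TET genes gave Dnmt1 -2.03, Dnmt3a -1.27, Dnmt3b -1.78, Tet1 2.13, Tet2 1.36, Tet3 1.75, and the PRC2 genes Ezh1 2.07, Ezh2 -2.82, Suz12 -0.69, Eed -1.25. Of the other named genes, those that differed at 20 h were Uhrf1 -4.43, Hells -4.66, Tdg -1.73, Rbbp4 -0.65, Rbbp7 -1.40, Jarid2 0.80, Phf19 -3.73, Bmi1 -0.88, Cbx7 1.30, Kdm6a 0.82, Kdm6b 0.52. Jarid2 and Kdm6b changed sign between the times, as did Tet2, with less response in Lat-/- cells at 4 h and a higher value at 20 h.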

How the results depend on the processing

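With a fold change above 2 required, the counts of genes called became 5 for WT cells at 20 h against 4 h in each experiment, 1 for Lat-/- cells at 4 h and 1 at 20 h, 0, 4, and 9 for Lat-/- against WT at 0, 4, and 20 h, and 3 for the difference of the 4 h response. For WT cells at 20 h against 0 h the count became 9 in each experiment, as Suz12 lost its call. At 4 h against 0 h it became 5 in CD5/CD6 and 4 in sorted WT cells, as Ezh1 and Suz12 lost theirs. The difference of the 20 h response gave 9, without Suz12. For the responses of the 3 knockouts, the lowest count over the alternatives that kept all replicate numbers was 43 in place of 51. DESeq2 called 7 in Lat-/- cells at 4 h, and filterByExpr 0 for Lat-/- against WT at 0 h. Leaving out each replicate number in turn gave 2 to 4 for Lat-/- cells at 4 h, 0 to 2 and 4 to 8 for Lat-/- against WT at 0 and 4 h, and 2 to 6 for the difference of the 4 h response, and without library 1 these were 2, 0, 4, and 2. The shares of all genes that passed are given above for the reported edgeR fit and not for the alternatives. With the replicate block the counts were as reported, except 52 in place of 51 of 60 responses of the 3 knockouts, and it changed no call of the 10 genes in WT or Lat-/- comparisons. The 10 genes have 130 values, of which 92 were called. Over all alternatives to them, 1196 kept direction and call, 66 lost the call (28 by the fold change alone), 26 gained one, and 24 turned in sign, none of which was called as reported. By library totals alone, the median of all genes moved by 0.10 in the difference of the 4 h response. This median does not give the size of the shift for a gene of the list. Tet3 at 4 h against 0 h in sorted WT cells, for example, went from 0.24 to -0.00945. The causes were not tested.

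The turned signs were as follows. At 4 h against 0 h in CD5/CD6 WT cells, Ezh2 gave -0.00724 with RLE factors, -0.25 by library totals, -0.00572 with DESeq2 and -0.0408 to 0.0507 without each replicate number, and Eed gave -0.0168 by library totals. At 20 h against 4 h in CD5/CD6 WT cells, Tet1 gave -0.48 to 1.10 without each replicate number, and Suz12 gave 0.0802 by library totals and -0.12 to 0.0674 without each replicate number. At 4 h against 0 h in sorted WT cells, Tet3 gave -0.00945 by library totals and -0.30 to 0.50 without each replicate number. At 20 h against 0 h in Lat-/- cells, Tet2 gave 0.0530 without library 3 of that group alone and -0.36 to 0.17 without each replicate number, Ezh2 gave -0.0207 by library totals and -0.01000 to 0.10 without each replicate number, and Eed gave -0.13 to 0.0167 without each replicate number. For Lat-/- against WT at 0 h, Tet2 gave -0.31 to 0.24 without each replicate number, and Suz12 gave -0.17 to 0.20 without each replicate number. In the difference of the 4 h response, Tet3 gave 0.00786 with RLE factors, 0.16 by library totals, 0.00756 with DESeq2, 0.0186 in a fit of the compared groups alone and -0.33 to 0.47 without each replicate number, and Eed gave -0.0199 to 0.29 without each replicate number.

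Depth limits Tet1, with counts of 15 to 1978, and no other gene of the list fell below 77 in a library. With 3 libraries per group the 95% intervals of the comparisons without CD5 or CD6 still hold log2 differences of 1 for Tet1.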
